A study of Mus musculus with 9 samples.

Results

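Kng2, Serpina6 and Clca1 are 3 of the 23329 gene rows in a count table of mouse pancreatic islet RNA. They were picked because their counts were much higher in the mutant libraries than in the controls and differed strongly among the mutants, so the differences below are descriptions of that choice and carry no test. Polyadenylated RNA was sequenced from islets of male mice, in 5 libraries titled as mutants, whose genotype label reads Pdx1A4 without explanation, and 4 titled as controls, labelled Pdx1+/-. The labels give no age and no Cre line or promoter, list culture media for islets without saying which samples they apply to, and nothing in them ties each library to an animal of its own, so p-values measure the spread among libraries, which could be technical. Library totals were 7186462 to 9163253 counts in mutants and 6092010 to 7375376 in controls. Pdx1, the transcription factor gene of the genotype label, had 15.6, 4.18, 7.13, 17.9 and 19.9 CPM (counts per 1000000, scaled to a common library size) in mutants 1 to 5, against 36.0, 32.1, 23.8 and 26.2 CPM in controls 1 to 4. Every mutant lay below every control, lowest in mutants 2 and 3.

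Kininogens are secreted proteins, best known as plasma proteins from liver, from which kallikrein proteases release kinins, short peptides that widen vessels and signal through the B1 and B2 bradykinin receptors. Mice carry a pair of neighbouring kininogen genes, Kng1 and Kng2. Serpina6 encodes corticosteroid-binding globulin, a member of the serpin family that does not inhibit proteases and instead carries glucocorticoids in plasma. The CLCA family encodes secreted or membrane-bound proteins known as regulators of calcium-activated chloride channels.

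The row named Clca1 is not the gene that bears this symbol today. The table holds 8 rows of the CLCA family, under names that RefSeq (GRCm38.p6) lists as current or older symbols of its 8 CLCA genes, and only 1 assignment gives every row a gene of its own. In it the Clca1 row is Clca3a1 (chromosome 3, positions 144729677 to 144760977), the Clca2 row is Clca3a2, and the gene now called Clca1, a goblet cell product once named gob-5, is the Clca3 row. That Clca3 row had 0 counts in all 5 mutants, against 1, 0, 0 and 4 in controls 1 to 4. The name Clca1 is kept below for the row. Kng2 lies on chromosome 16 (22985852 to 23029101) and Serpina6 on chromosome 12 (103646630 to 103657218), both in GRCm38.

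Kng2 and the Clca1 row each have a close relative, and how much of their sequence is distinct bears on what their counts measure. In the longest protein-coding transcripts of GENCODE M21, the reading frames of Kng2 and Kng1 were identical at 92.9% of aligned bases, and those of Clca3a1 and Clca3a2 at 97.1%. The first 114 coding bases of Kng2 and Kng1 are the same, and so are the first 128 of Clca3a1 and Clca3a2. The opening 90 bases, shared letter for letter within each pair, show where a short read could not be assigned.
Kng2 and Kng1: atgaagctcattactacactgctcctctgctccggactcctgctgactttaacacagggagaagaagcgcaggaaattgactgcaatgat
Clca3a1 and Clca3a2: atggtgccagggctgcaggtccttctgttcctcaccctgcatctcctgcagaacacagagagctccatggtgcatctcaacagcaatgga
The 60 coding bases with the most differences within each pair show where a read could be assigned. Capitals mark the bases that differ, 16 in the kininogen pair (coding bases 380 to 439) and 13 in the CLCA pair (coding bases 559 to 618).
Kng2: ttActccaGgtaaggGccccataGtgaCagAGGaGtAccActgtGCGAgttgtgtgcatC
Kng1: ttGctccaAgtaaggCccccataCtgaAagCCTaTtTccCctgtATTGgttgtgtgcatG
Clca3a1: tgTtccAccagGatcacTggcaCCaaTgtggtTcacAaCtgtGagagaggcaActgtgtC
Clca3a2: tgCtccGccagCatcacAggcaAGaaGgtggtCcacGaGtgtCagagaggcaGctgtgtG

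Of all stretches of 50 bases in the Kng2 transcript, 18.2% also occurred in a transcript of another gene, and that gene was Kng1. For Clca3a1 the share was 25.8%, or 23.6% counting Clca3a2 alone, and for Serpina6 it was 0 of 1556 stretches. Read length and the handling of reads with several matches are not given in the sources used here. The counts of Kng2 and Kng1, and of the Clca1 and Clca2 rows, may therefore each include reads of the other gene of the pair. Serpina6 shares no stretch of that length.

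The 250 bases before the start sites of Kng2 and Clca3a1 were read from the RefSeq promoter table (GRCm38.p6).
Kng2, chr16:23029102-23029351, minus strand: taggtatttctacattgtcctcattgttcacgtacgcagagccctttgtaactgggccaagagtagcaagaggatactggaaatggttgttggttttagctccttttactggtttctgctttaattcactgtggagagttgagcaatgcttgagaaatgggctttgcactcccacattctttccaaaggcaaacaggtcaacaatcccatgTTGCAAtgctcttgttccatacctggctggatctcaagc
Clca3a1, chr3:144760978-144761227, minus strand: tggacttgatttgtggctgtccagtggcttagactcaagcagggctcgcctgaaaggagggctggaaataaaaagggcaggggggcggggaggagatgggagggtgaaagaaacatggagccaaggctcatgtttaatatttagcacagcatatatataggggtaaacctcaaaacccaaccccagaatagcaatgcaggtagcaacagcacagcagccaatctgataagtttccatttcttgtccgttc
Both strands were searched for an E-box (CANNTG, found in 66.2% of the 32851 promoters of the table) and for HNF1 (GTTAAT, 6.43%), FOXA (TGTTTAC, 3.17%), NR5A (AAGGTCA, 4.08%), homeodomain (TAATTA, 4.84%), a TATA box (TATAAA, 12.4%), GATA factors (AGATAA, 9.99%) and for a kappa-B motif (0.98%). RBPJ (TGGGAA, 21.6%) and C/EBP (TTGCAA, 5.34%) letters were added after none of these was found. The single match among all of them was the C/EBP run in Kng2, in capitals, which begins 39 bases before the start site. Only these exact letters were searched, so sites written otherwise, also in Clca3a1, were not counted.

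Kng2 was measured at 14.1, 347, 273, 29.0 and 21.4 CPM in mutants 1 to 5, against 2.32, 6.0, 9.25 and 3.02 CPM in controls 1 to 4. All 5 mutants lay above all 4 controls, with mutants 2 and 3 more than 9-fold above every other library. The raw counts were 116, 2577, 1800, 198 and 160 in mutants 1 to 5 and 17, 41, 79 and 27 in controls 1 to 4, so the control levels rest on few reads. In bulk RNA, fewer cells of a type and less RNA per cell cannot be told apart, and this holds for every level below. The means were 137 ± 160 CPM in mutants (SD, n = 5) and 5.15 ± 3.17 CPM in controls (SD, n = 4). On the log2 scale the fitted difference was 4.73, mutant minus control (standard error 1.14). The mutant SD was larger than the mutant mean.

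Serpina6 was measured at 109, 1940, 1547, 55.0 and 115 CPM in mutants 1 to 5, against 48.7, 54.7, 48.0 and 27.2 CPM in controls 1 to 4. Mutants 2 and 3 again stood far above the rest, while mutant 4 was only 1.005-fold above the highest control. Its counts ran from 376 to 14395 in mutants and from 243 to 410 in controls, the deepest coverage of the 3 genes. The means were 753 ± 915 CPM in mutants (SD, n = 5) and 44.6 ± 12.04 CPM in controls (SD, n = 4). The fitted log2 difference was 4.08 (standard error 1.13). The controls were steadier for Serpina6 than for the other members, with the highest 2.02-fold above the lowest, against 3.98-fold for Kng2 and 3.79-fold for Clca1.

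The Clca1 row was measured at 5.09, 112, 90.9, 5.85 and 8.96 CPM in mutants 1 to 5, against 0.957, 3.07, 3.63 and 1.12 CPM in controls 1 to 4. No mutant overlapped a control, and the lowest mutant was 1.40-fold above the highest control. The counts were 42, 834, 599, 40 and 67 in mutants 1 to 5 and 7, 21, 31 and 10 in controls 1 to 4, the lowest of the 3 genes. The means were 44.6 ± 52.6 CPM in mutants (SD, n = 5) and 2.19 ± 1.36 CPM in controls (SD, n = 4). The fitted log2 difference was 4.34 (standard error 1.15).

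**Figure D1:**
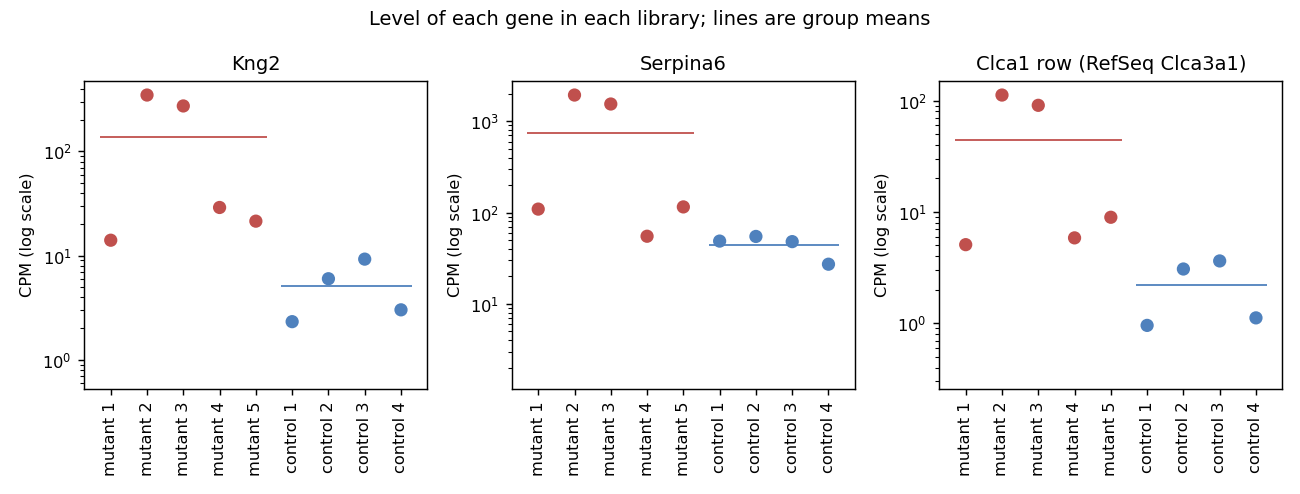
CPM on a log scale for Kng2, Serpina6 and the Clca1 row in each library, mutants in red and controls in blue, with lines at the group means. Mutants 2 and 3 stand apart in every panel (347 and 273 CPM for Kng2), and the mutant 4 point of Serpina6, at 55.0 CPM, lies level with the highest control.

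Separation of the groups was not rare in these data: every mutant lay above every control in 18.5% of the 12402 genes that passed the low-count filter. Differences of this size were rarer, and by log2 fold change Kng2, Clca1 and Serpina6 ranked 2, 5 and 7 of 12402. These ranks follow in part from how the members were picked. Their spread among mutants was wide, with an SD of log2 CPM of 2.16 for Kng2, 2.39 for Serpina6 and 2.17 for Clca1, where the median tested gene had 0.35. In controls the SDs were 0.86, 0.45 and 0.86, where the median tested gene had 0.32.

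The unevenness was a split into libraries with very high and moderate levels. In mutant 2 the members lay 67.5-fold (Kng2), 43.5-fold (Serpina6) and 51.2-fold (Clca1) above their control means, and in mutant 3 they lay 53.0-fold, 34.7-fold and 41.4-fold above. In mutant 1 the same folds were 2.73, 2.44 and 2.32, in mutant 5 they were 4.16, 2.58 and 4.09, and in mutant 4 they were 5.63, 1.23 and 2.67. The order of these folds was Kng2 above Clca1 above Serpina6 in mutants 2, 3, 4 and 5, with the last pair exchanged in mutant 1. The members were farthest apart from each other in mutant 4.

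Such a split is uncommon. The 2 highest libraries were at least 4-fold above the next library in 32 genes, or 0.258% of those tested, and in all 32 the pair was mutants 2 and 3. By the size of this gap Serpina6, Clca1 and Kng2 ranked 2, 4 and 5. They were picked for uneven rises, so high ranks here follow in part from that choice. The gap was 13.4-fold for Serpina6, 10.1-fold for Clca1 and 9.43-fold for Kng2. Ranks 1 and 3, named after their values were seen, were Serpini2, a serpin gene known from pancreas, and Ces1d, a carboxylesterase gene.

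Without mutants 2 and 3 the log2 fold changes were 2.00 for Kng2 (standard error 0.44), 1.02 for Serpina6 (0.30) and 1.54 for Clca1 (0.49). All 3 were positive, which the choice of these genes made likely. Without mutant 2 alone they were 3.97, 3.30 and 3.59, the lowest of any fit that left out 1 library.

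Within a library the members can be set against each other without scaling. For every 100 Serpina6 counts there were 12.9, 17.9, 17.7, 52.7 and 18.6 Kng2 counts in mutants 1 to 5, against 4.78, 10.96, 19.3 and 11.1 in controls 1 to 4. Mutant 4 stood apart, and the other mutants lay within the control range. For every 100 Kng2 counts there were 36.2, 32.4, 33.3, 20.2 and 41.9 Clca1 counts in mutants 1 to 5, against 41.2, 51.2, 39.2 and 37.0 in controls 1 to 4. Mutant 4 was the lowest, mutants 1, 2 and 3 lay just under the control range, and mutant 5 lay inside it.

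Per kilobase of the longest transcript, Serpina6 was the most abundant, followed by Kng2 and then Clca1, in 9 of 9 libraries. The levels were 469 ± 570, 59.7 ± 69.9 and 12.7 ± 14.9 CPM per kb in mutants (SD, n = 5) and 27.8 ± 7.502, 2.24 ± 1.38 and 0.623 ± 0.385 in controls (SD, n = 4). In mutants the ranges overlapped, since Serpina6 had 34.3 CPM per kb in mutant 4 and Kng2 had 151 in mutant 2, and in controls they did not overlap for any pair of neighbours in this order except Kng2 and Clca1 (1.01 to 4.03 and 0.272 to 1.03).

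The split was shared by part of the acinar transcripts and not by their sum. Acinar cells make the digestive enzymes of the exocrine pancreas that surrounds islets, and 24 of their genes summed to 153602, 334389, 322609, 308309 and 143934 CPM in mutants 1 to 5, against 29184, 57773, 40391 and 24837 CPM in controls 1 to 4. Of these 24 genes 23 rose and 0 fell (edgeR quasi-likelihood test, adjusted p under 0.05, where 20.6% of all tested genes were called higher and 11.8% lower). Mutant 4 had nearly the acinar sum of mutants 2 and 3, but members far below their levels there. In mutant 4 Kng2 (29.0 CPM) was above mutants 1 and 5 (14.1 and 21.4). Clca1 (5.85) lay between them (5.09 and 8.96), and Serpina6 (55.0) below both (109 and 115). Single acinar genes differed in which mutant was highest, mutant 2 for 12 of the 24, mutant 3 for 1 and mutant 4 for 11. Clps, the colipase gene, had 1893, 14750, 13390, 3147 and 1920 CPM in mutants 1 to 5, against 514, 1320, 701 and 425 CPM in controls 1 to 4, a split like that of the members.

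Set against the sum of acinar counts, the members were above the control range in mutants 2 and 3 alone. Kng2 had 91.4, 1039, 846, 94.0 and 149 counts per 1000000 acinar counts in mutants 1 to 5, against 79.6, 104, 229 and 122 in controls 1 to 4. Mutants 1, 4 and 5 lay inside the control range. Serpina6 had 710, 5803, 4797, 178 and 801, against 1668, 947, 1189 and 1094, so mutants 1, 4 and 5 lay below every control on this scale. The 95% Wilson interval of its mutant 4 value, 161 to 197, lay under that of its lowest control, 856 to 1048, and covers counting error only. Clca1 had 33.1, 336, 282, 19.0 and 62.3, against 32.8, 53.2, 89.9 and 45.0, with mutant 4 the lowest library, although its interval (13.9 to 25.8) overlapped that of control 1 (15.9 to 67.7). Set against Clps alone, a choice made after its values were seen, the distance was smaller. For every 1000 Clps counts there were 7.42, 23.6, 20.4, 9.20 and 11.2 Kng2 counts in mutants 1 to 5, against 4.52, 4.55, 13.2 and 7.11 in controls 1 to 4. For Serpina6 mutants 2 and 3 had 132 and 116 and mutant 4 had 17.5, against 41.5 to 94.7 in controls.

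**Figure D2:**
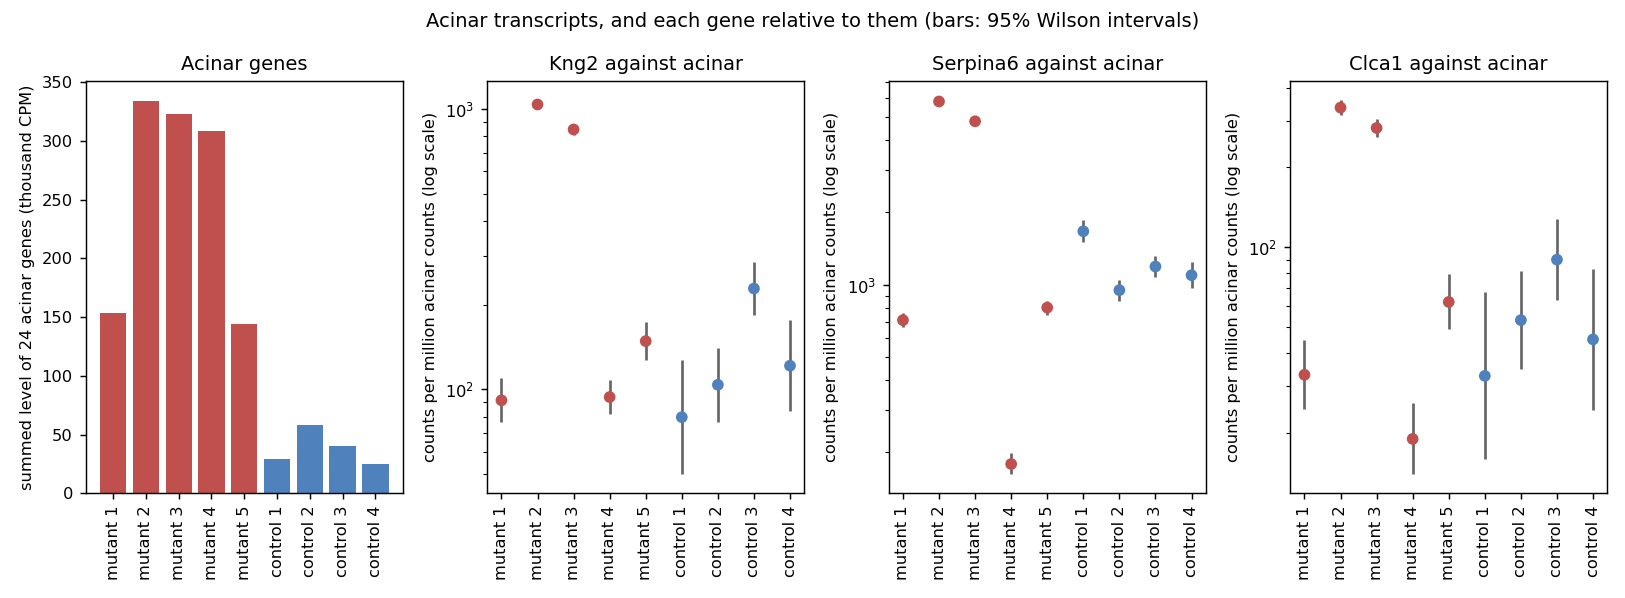
Left, summed CPM of 24 acinar genes per library; right, counts of each member per 1000000 acinar counts on a log scale with 95% Wilson intervals, mutants in red and controls in blue. Mutants 2 and 3 stay high on the relative scale (1039 and 846 for Kng2), while mutant 4 lies inside or below the control range with an acinar sum of 308309 CPM.

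Hormone transcripts of the endocrine cells were lowest in the same libraries in which the members were highest. The 7 genes of insulin, amylin, glucagon, somatostatin, pancreatic polypeptide and peptide YY summed to 76824, 853, 14888, 56574 and 69919 CPM in mutants 1 to 5, against 175278, 218447, 155220 and 132970 CPM in controls 1 to 4. The part of the acinar and hormone differences in the members' levels was not tested.

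Liver, from which the Kng2 and Serpina6 proteins are best known, and goblet cells were checked by their markers. Goblet cells were included for the symbol Clca1, but the goblet cell gene of that name is the Clca3 row, not the member. Of all tested genes 20.6% were called higher and 11.8% lower. The 15 hepatocyte markers summed to 68.1 to 192 CPM in mutants and 287 to 567 CPM in controls, with 0 of 8 tested markers higher and 3 lower. Much of that sum was Ttr, the transthyretin gene, and without it the sums were 63.4 to 89.1 CPM in mutants and 101 to 160 CPM in controls. Single markers went different ways in mutants 2 and 3: Serpinc1 had 0 counts, while F2, the prothrombin gene, had 18.2 and 15.5 CPM there, against 6.73 to 8.75 CPM in controls, without passing. Hpx, the hemopexin gene, had 27.7, 25.6, 27.9, 3.95 and 19.3 CPM in mutants 1 to 5, against 5.56 to 13.8 CPM in controls. It did not pass, and was not split like the members. Alb, the albumin gene, had 17, 88, 45, 4 and 14 counts in mutants 1 to 5, against 7, 7, 11 and 8 in controls 1 to 4. The 9 goblet cell markers found summed to 123 to 431 CPM in mutants and 22.0 to 38.9 CPM in controls, with 2 of 4 tested markers higher and Atoh1 and Ern2 at 0 in all 9 libraries. Most of that sum was Zg16, which zymogen granules hold too. Without Zg16 the goblet cell markers summed to 9.45, 26.0, 22.8, 11.3 and 10.4 CPM in mutants 1 to 5, against 1.91, 4.54, 6.44 and 4.36 CPM in controls 1 to 4, highest in mutants 2 and 3 like the members. Ductal markers, of the cells that line pancreatic ducts, summed to 18350 to 31040 CPM in mutants and 4856 to 13820 CPM in controls, with 7 of 16 higher and 1 lower, and were highest in mutant 4. The part of these cell types in the members' levels was not tested.

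The members were among the genes most like each other. They were picked for large, uneven rises in these same libraries, so this likeness was in part built in and carries no test. Likeness was taken as the root mean square difference in log2 CPM, centred on the control mean, over all 9 libraries, among the 11513 genes whose log2 CPM averaged 1 or more. Clca1 and Kng2 were each other's nearest gene, at 0.46, and Serpina6 was the third nearest to Clca1, at 0.62. Serpina6 and Kng2 were less alike, at 0.98.

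Serpini2 was nearest to Serpina6 (0.46) and second nearest to Clca1 (0.54), with 7.63, 275, 199, 10.7 and 12.04 CPM in mutants 1 to 5, against 4.101, 9.22, 3.98 and 2.68 CPM in controls 1 to 4. Reg3d, a lectin gene of the Reg family (0.76), the trypsinogen gene Try10 (0.80), and 2210407C18Rik (0.81) followed Clca1 in likeness to Kng2, each farther above its controls in mutant 4 than the members were. Serpina6 was also near the potassium channel gene Kcnj15 (0.68), the receptor-modifying gene Ramp1 (0.71) and the vitronectin gene Vtn (0.78). Clca1 was near the cytochrome P450 gene Cyp2c70 (0.66) and the colipase gene Clps (0.71). These genes resemble the members by construction, so no test is given.

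**Figure D3:**
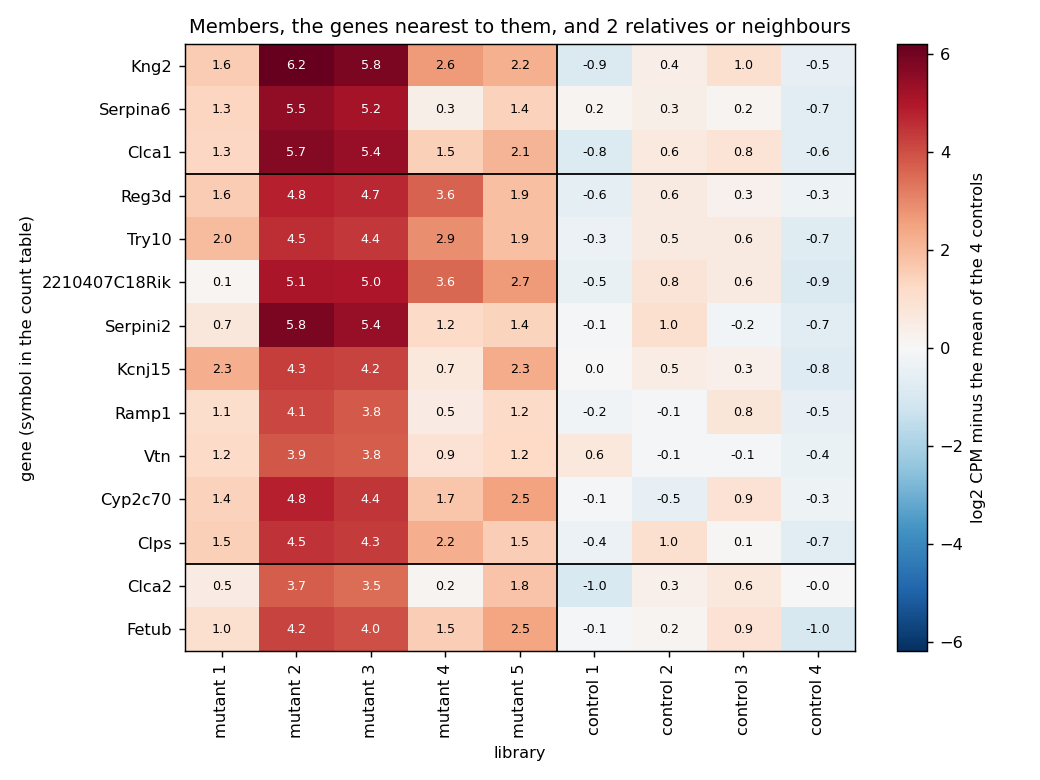
Log2 CPM minus the mean of the 4 controls for the 3 members (top), the genes nearest to them (middle), and the Clca2 row and Fetub (bottom), in each library. Mutants 2 and 3 are the darkest columns in every line (347 and 273 CPM for Kng2), and mutant 4 is near the controls for Serpina6 and the Clca2 row but not for Reg3d, Try10 or 2210407C18Rik.

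The relatives that lie beside Kng2 and Clca1 were also highest in mutants 2 and 3. Kng1, the other kininogen gene, had 3, 99, 70, 2 and 7 counts in mutants 1 to 5, against 2, 4, 8 and 6 in controls 1 to 4, and did not pass the low-count filter. It had 1.01 to 4.38 counts per 100 Kng2 counts in mutants and 9.76 to 22.2 in controls, so it was the minor gene of the pair throughout. The Clca2 row, or Clca3a2, had 8.84, 84.9, 70.8, 6.88 and 21.5 CPM in mutants 1 to 5, against 3.01, 7.76, 9.60 and 6.03 CPM in controls 1 to 4. It rose, with a fitted log2 difference of 2.54 (standard error 0.79, edgeR adjusted p = 0.0337), and mutants 1 and 4 overlapped the controls. It no longer passed without any 1 control, without mutant 2 or mutant 3, without both of these, or with the replicate number as a block (highest edgeR adjusted p = 0.210, lowest log2 difference 0.86). The balance within the CLCA pair differed: Clca2 had 75.5 to 240 counts per 100 Clca1 counts in mutants and 252 to 540 in controls, without overlap. The nearest values, 240 in mutant 5 and 252 in control 2, were close, and the control ratios rest on 7 to 31 Clca1 counts. Clca1 was picked for its rise, which lowers this ratio in mutants, and the pair may share reads.

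Calls of other neighbours on the chromosome stand beside those of all tested genes, 20.6% higher and 11.8% lower. Among the 5 protein-coding genes on each side of Kng2, 6 were tested and 1 rose: Fetub, which encodes the plasma protein fetuin-B. Fetub had 21.1, 198, 170, 30.7 and 59.0 CPM in mutants 1 to 5, against 10.1, 11.9, 19.6 and 5.14 CPM in controls 1 to 4, a log2 difference of 3.04 (standard error 0.73, edgeR adjusted p = 0.0136). Ahsg, which encodes fetuin-A and was below the filter, had 1, 20, 25, 5 and 7 counts in mutants 1 to 5, against 1, 1, 8 and 0 in controls 1 to 4. Dnajb11 and Eif4a2, on either side of this cluster, had log2 fold changes of 0.04 and -0.09 and did not pass.

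Beside Serpina6, 4 neighbours were tested. Serpina10, which encodes an inhibitor of coagulation factor X and lies next to it, fell to 227 ± 38.8 CPM in mutants (SD, n = 5), against 402 ± 24.4 in controls (SD, n = 4), with a log2 fold change of -0.83 (edgeR adjusted p = 0.00554). Ifi27l2b, an interferon-inducible family member, and the Ifi27l1 row rose, with log2 fold changes of 2.97 and 0.92. Close paralogs of the Ifi27 family may share reads, and the Ifi27l1 call was lost without mutant 3, without both mutants 2 and 3 and with the block (highest edgeR adjusted p = 0.0669). Near Clca1, 6 were tested and 2 rose, the Clca2 row and Lmo4, a LIM-domain cofactor gene (log2 fold change 1.73).

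The genes that process kininogens were grouped by role. Of 11 tested genes of kinin release, breakdown and reception 5 rose and 2 fell, with a median log2 fold change of -0.02 against 0.04 over all tested genes. These were 45.5% and 18.2% of the list, against 20.6% and 11.8% of all tested genes. The tissue kallikrein gene Klk1 had 1050 ± 571 CPM in mutants (SD, n = 5) and 150 ± 25.4 CPM in controls (SD, n = 4), and rose by 2.81 on the log2 scale (edgeR adjusted p = 0.00169). It was highest in mutant 4, the library with the least Clca1 relative to acinar counts. Its paralogs Klk1b3, Klk1b4 and Klk1b5 rose by 2.44, 3.72 and 2.79 on the log2 scale, but may share reads with each other, and Klk1b3 did not pass without mutants 2 and 3 or with the block (highest edgeR adjusted p = 0.0695). The aminopeptidase gene Xpnpep1 rose by 0.70, and the peptidase genes Cpd and Ece1 fell by 0.49 and 1.16 on that scale. Xpnpep1 did not pass without control 1, mutant 3 or mutant 4, nor Ece1 when control 1 or 4 was left out (edgeR adjusted p up to 0.0690 and 0.0611), and the block ended the calls of Xpnpep1 and Cpd.

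Kinin receptors were near the limit of detection. Bdkrb1 had 21, 1, 3, 0 and 1 counts in mutants 1 to 5, against 3, 0, 7 and 14 in controls 1 to 4, and Bdkrb2 had 16, 0, 3, 0 and 0, against 1, 2, 1 and 10. Plasma kallikrein (Klkb1) had at most 4 counts in any library. Serping1, the inhibitor of plasma kallikrein, had 264 ± 229 CPM in mutants (SD, n = 5) and 802 ± 61.1 CPM in controls (SD, n = 4). It lay below every control in all 5 mutants and did not pass (edgeR adjusted p = 0.137).

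Serpins of the clade of Serpina6 were few among the tested genes. Of 5 tested clade A serpins 0 rose and 3 fell, namely Serpina10, Serpina7 (thyroxine-binding globulin) and Serpina3n, with log2 fold changes of -0.83, -1.64 and -2.57 (edgeR adjusted p = 0.00554, 0.00685 and 0.0134). Serpina3f and Serpina3i did not pass, with log2 fold changes of 0.84 and -1.93. The median over the 5 was -1.64. Of the serpins of other clades named here, Serpinf2 rose by 2.74 on the log2 scale and was called in 15 of 15 alternatives, and Serpini2, chosen for its likeness to the members, had a log2 difference of 4.34. The Serpina3 genes form a cluster of close paralogs, so their counts may be shared.

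The Serpina6 protein carries glucocorticoids, and a list of their receptors, enzymes, a chaperone and responding genes was set beside it. Of 17 tested 1 rose and 4 fell, with a median log2 fold change of -0.46. The share called, 29.4%, was near the 32.4% called among all tested genes. The kinase gene Sgk1 rose with 68.4, 217, 174, 39.9 and 51.9 CPM in mutants 1 to 5, against 20.6, 16.7, 34.7 and 46.3 CPM in controls 1 to 4 (log2 fold change 1.90, edgeR adjusted p = 0.0284). Mutant 4 overlapped the controls. Without mutants 2 and 3 the value was 0.79 and did not pass, nor did it pass without control 1, 2 or 3, without mutant 2 or 3 alone, or with the block (highest edgeR adjusted p = 0.143). Cebpd, Per1, Ddit4 and Errfi1 fell, by 1.73, 1.36, 0.89 and 0.91 on the log2 scale, with Ddit4 and Errfi1 lost under the block (edgeR adjusted p = 0.0774 and 0.0539). The receptor gene Nr3c1 and the cortisone-activating enzyme gene Hsd11b1 did not pass (log2 fold changes -1.18 and -0.76).

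Anion channel and mucous genes were the groups set beside Clca1. The mucous group was chosen for that symbol, whose goblet cell gene is the Clca3 row and not the member. Of 13 tested CLCA and chloride channel genes 5 rose and 1 fell, with a median log2 fold change of 1.07. The shares were 38.5% higher and 7.69% lower, against 20.6% and 11.8% of all tested genes. The calcium-activated chloride channel gene Ano1 had 51.2 ± 4.61 CPM in mutants (SD, n = 5) and 18.3 ± 7.88 CPM in controls (SD, n = 4; log2 fold change 1.48, edgeR adjusted p = 0.00493), and the anion transporter gene Slc26a9 had 19.0 ± 4.91 CPM in mutants and 3.70 ± 1.62 CPM in controls (2.36, edgeR adjusted p = 0.00242). Ano10 rose by 1.15 and the chloride transporter gene Clcn3 fell by 0.81 on the log2 scale. Ano9 was called with 9 libraries (edgeR adjusted p = 0.0495), but only 2 of 15 alternatives called it. Cftr, the cystic fibrosis chloride channel gene, had 1.22 and did not pass (edgeR adjusted p = 0.233), and the Clca4 row had 20 or more counts in mutants 2 and 3 and control 4 only.

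Of 18 tested mucous and goblet cell genes 8 rose and 0 fell, with a median log2 fold change of 1.03. That is 44.4% higher and 0% lower, against 20.6% and 11.8% of all tested genes. Muc1 and Tff2 were also counted among the ductal markers above. The trefoil factor genes Tff1, Tff2 and Tff3 rose by 2.30, 2.90 and 2.28 and the mucin genes Muc1 and Muc5ac by 2.21 and 2.67 on the log2 scale. Zg16, of zymogen and mucous granules, rose by 2.89 and Sytl2 by 1.90. Foxa3, a forkhead factor gene, rose by 1.36 (edgeR adjusted p = 0.0184; highest 0.0569, lost without control 2, mutant 3 or both mutants 2 and 3, and with the block), and Spdef, the goblet cell factor, was higher in all 5 mutants than in any control without passing (1.64, edgeR adjusted p = 0.0535). Muc5ac was even, with 28 to 53 counts in mutants and 5 to 10 in controls, unlike the members.

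Plasma proteins that liver makes, as it does those of Kng2 and Serpina6, went both ways. Of 15 tested 4 rose and 4 fell, with a median log2 fold change of 0.39. Each direction held 26.7%, where 20.6% of all tested genes were called higher and 11.8% lower. Fetub, Vtn, Itih2, a heavy chain of a hyaluronan-binding inhibitor, and Serpinf2, the plasmin inhibitor gene, rose by 3.04, 2.82, 1.83 and 2.74 on the log2 scale, and Ambp, Fga, Fgg and Rbp4 fell by 0.90, 1.80, 2.07 and 1.80. The number called was 4 without mutant 3 or without mutants 2 and 3, 5 without control 1 or control 4, and 3 with the block. Fga and Rbp4 passed in 6 and 7 of 15 alternatives, Itih2 in 10, Vtn in 11, Fgg in 12 and Ambp in 14, with highest edgeR adjusted p-values of 0.136, 0.0944, 0.0994, 0.0614, 0.0888 and 0.0832. The lost calls of Vtn were without control 2, control 4 or both mutants 2 and 3 and with the block, those of Itih2 without control 1, control 2, mutant 3 or both mutants and with the block, and those of Fgg without control 3, mutant 3 or both mutants. Of 13 tested acute phase genes 2 rose and 2 fell (7 called without mutant 1), with a median of 0.25, and the share called, 30.8%, was near the 32.4% of all tested genes. Itih4, of the same inhibitor family, rose with 9.93, 72.1, 65.5, 14.6 and 14.5 CPM in mutants 1 to 5, against 3.28, 3.95, 6.44 and 2.12 CPM in controls 1 to 4 (log2 fold change 3.15, edgeR adjusted p = 0.0105), and Il1rn by 1.65, which did not pass without control 2 or without mutants 2 and 3 (highest edgeR adjusted p = 0.0608). Stat3 and Socs3, of cytokine signalling, had log2 fold changes of -1.23 and -1.197 and fell.

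Of 19 tested transcription factor genes of endoderm 9 rose and 1, Nr1h4, fell, with a median log2 fold change of 0.47. This was 47.4% higher and 5.26% lower, against 20.6% and 11.8% of all tested genes. Nr1h4, the bile acid receptor gene, had -0.56 and was called in 7 of 15 alternatives, but not without control 1, 2 or 4, mutant 1, 3 or 5, or both mutants 2 and 3, nor with the block (highest edgeR adjusted p = 0.132). Ptf1a and Rbpjl, partners in the factor that drives acinar genes, rose by 3.15 and 2.21, Gata4 by 2.53, Cebpa by 2.31, Nr5a2 by 2.55 and Nr0b2 by 3.04 on the log2 scale. Hnf4a, a factor of liver and gut, had 42.5 ± 19.7 CPM in mutants (SD, n = 5) and 11.8 ± 1.67 CPM in controls (SD, n = 4; log2 fold change 1.85, edgeR adjusted p = 0.0063).

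**Figure D4:**
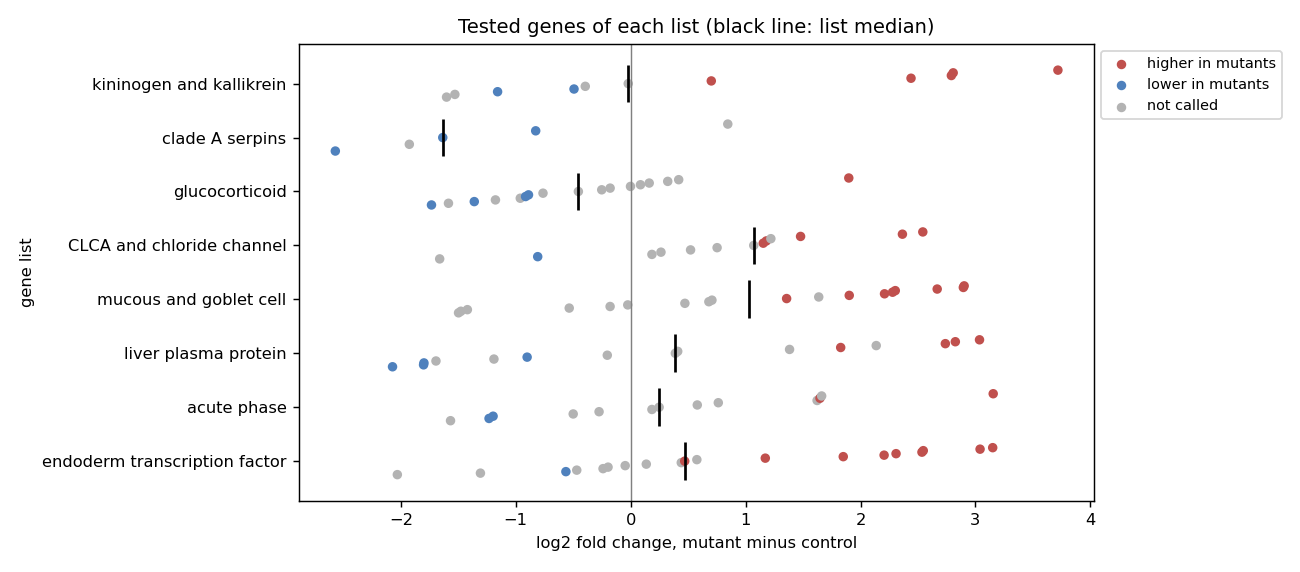
Log2 fold change, mutant minus control, of the tested genes of 8 lists, coloured by call at an edgeR adjusted p under 0.05 (red higher, blue lower, grey not called), with a black line at each median. The mucous and goblet cell list holds 8 higher and 0 lower genes, and the clade A serpins 0 higher and 3 lower. Among all tested genes 20.6% were higher and 11.8% lower.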

How the data were processed

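The authors deposited whole-number counts per gene symbol for 9 libraries, without normalization. The submitters' processing notes name STAR, RSEM, HOMER, DESeq2, R 4.1.0 and mm10, giving no step to any of them. The sources used here name no counter, annotation or strand setting, so reads of overlapping, antisense or paralogous genes cannot be told apart. Groups came from the sample titles. All counts were fitted with edgeR 4.0.16 in R 4.3.3 (filterByExpr, TMM, quasi-likelihood test, Benjamini-Hochberg over 12402 genes, threshold 0.05, two-sided). Log2 CPM used a prior count of 2. The standard error was the unshrunken estimate over the square root of F. Of all calls 63.6% were higher, against 51.8% under relative log expression scaling and 49.6% with DESeq2; that scaling moved the median log2 fold change by -0.10. The pipeline was tested on simulated data. No pair of libraries agreed within sampling noise.

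Named genes were the members, the 5 genes nearest to each, called list genes of lowest p (at most 6 a list), direct partners, tested neighbours and Pdx1, of which a part is given. Other names (Alb, F2, Hpx, Serping1, Serpina3f, Serpina3i, Tff3, Hnf4a, Nr1h4, Ahsg and those said to be) were picked after their values were seen. Members and lists were chosen with earlier results of these data known. Alternatives were other scaling and filters, DESeq2 1.42.0, a replicate block and left-out libraries. The count table's older symbols were matched through RefSeq synonyms. The label Il25 was left out of a marker list as ambiguous.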

Additional observations from a re-analysis of the deposited data

Results flagged for a closer look

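Within a group, some single libraries lay far from the others in log2 CPM, a gap that chance gives in about 1 of 20 groups. Of 150 groups of named genes 11 showed it, and none was a member. The rule looks for 1 library apart from the rest. Mutants 2 and 3 lay close together for the members, so it could not flag their split. Among mutants, Klk1 was high in mutant 4 (11.02, others 9.60 to 9.67), Per1 high in mutant 5 (1.49, others 0.52 to 0.70), Errfi1 low in mutant 4 (5.30, others 5.91 to 6.09) and Socs3 low in mutant 2 (2.57, others 3.44 to 3.66). Among controls, control 2 was high for Nr3c1 (8.92, others 6.56 to 6.95), Clcn3 (8.31, others 7.68 to 7.78) and Cpd (5.55, others 5.41 to 5.43) and low for Cebpa (0.365, others 1.19 to 1.32). Control 3 was low for Ece1 (7.79, others 8.27 to 8.37) and high for Fgg (4.54, others 2.89 to 3.11), and control 4 was high for the Clca4 row (2.34, others -1.92 to -1.29).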

How the results depend on the processing

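Kng2, Serpina6 and Clca1 stayed higher in mutants under every alternative run. They were picked for their rises in these libraries, so this direction was largely built in. Leaving out 1 library gave log2 fold changes of 3.97 to 5.18, 3.30 to 4.36 and 3.59 to 4.71, and leaving out mutants 2 and 3 gave 2.00, 1.02 and 1.54. Over all tested genes, 4022 were called with 9 libraries, 2377 to 4567 with 1 left out (2377 without control 1 and 2479 without mutant 3), and 2584 without mutants 2 and 3. The called members of a list ranged, with 1 library left out, from 3 to 7 (acute phase), 4 to 10 (liver plasma protein), 5 to 8 (kininogen and kallikrein), 3 to 4 (clade A serpins), 4 to 6 (glucocorticoid, and CLCA and chloride channel), 7 to 10 (mucous and goblet cell) and 8 to 11 (endoderm transcription factor). Without mutants 2 and 3 the liver plasma protein list held 4 calls. Fewer libraries were fitted in each case. No sign was found that the replicate numbers pair the libraries. Correlations of same-numbered deviations were 0.05, -0.02, 0.18 and -0.05, and 1 of 8 libraries correlated best with its own number. With so few libraries and wide differences among mutants, such a check cannot exclude a pairing. With the replicate number as a block, 2432 genes were called in all, with 2 in the glucocorticoid, 4 in the kininogen and 3 in the liver plasma protein list; the cause was not tested. With 7 to 31 counts in controls, the depth limits how well the size of the Clca1 difference is known.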

Other observations

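The 32 genes in which mutants 2 and 3 stood at least 4-fold above every other library were not all secretory. Among them, named after their values were seen, were Ccnb2, a mitotic cyclin gene, with 3.51, 35.3, 32.2, 3.07 and 3.21 CPM in mutants 1 to 5, against 1.78, 0.585, 1.64 and 2.91 CPM in controls 1 to 4, and Birc5, the survivin gene, with 3.996, 30.5, 27.9, 4.39 and 4.42 CPM, against 1.91, 3.66, 3.16 and 3.24 CPM. Of the 24 acinar genes 1 was in this set, Clps. Prss1, a trypsinogen gene outside that list, was in the set too, with 31.4 and 27.6 CPM in mutants 2 and 3. In 12 of the 32 every mutant lay above every control. Other genes of cell division in the set were Nusap1, Cdc20, Cenpa, Ccnb1, Plk1, Cdca3, Dlgap5 and Ube2c. Of these, Cenpa, Cdca3 and Dlgap5 did not pass.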
